A study of Mus musculus with 4 samples.

Results

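The metallothionein genes Mt1 and Mt2 were followed in mouse gastrocnemius, a calf muscle of mostly fast fibres, over 4 Affymetrix MG-U74Av2 arrays. The members were taken as every probe set to which the platform annotation gives Mt1 or Mt2 as its only gene symbol. This rule found 2 probe sets among 12422 that were not controls, and 2 genes among 8251: probe set 93573_at for Mt1 and 101561_at for Mt2. No other probe set of the annotation named either gene. Each array carried RNA from the muscles of 10 mice that had been combined into 1 pool, with 1 array for every group. Compared were intact mice, mice whose adrenals had been removed 1 week earlier, and adrenalectomized mice that had received 0.1 mg of cortisol intraperitoneally 3 h or 24 h before dissection. The interval after surgery was stated for the uninjected adrenalectomized group alone. The labels are silent on a sham operation, a vehicle injection, the time of day, strain, sex and age. By the same labels nothing was replicated, so no difference below has a replicate check or a p-value, and each comparison sets 1 pool of mice against another.

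Metallothioneins are small cysteine-rich proteins that hold zinc and copper ions and buffer their free concentration in the cell. Mt1 and Mt2 are made in most tissues, and their genes are induced by metal ions through the zinc-sensing transcription factor MTF-1, by oxidative stress and by glucocorticoids acting on the glucocorticoid receptor. In muscle they are known to be induced by stress and in wasting. Adrenalectomy removes the source of corticosterone, the natural glucocorticoid of the mouse, and injected cortisol acts on the same receptor.

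Both genes lie side by side on chromosome 8, in the order Mt4, Mt3, Mt2 and Mt1 among the protein-coding genes of the RefSeq annotation of the GRCm38.p6 assembly. The RefSeq table of gene starts held 1 window for each of Mt1 and Mt2, and these starts lie 6471 bases apart. The start used for Mt1 lies 206 bases inside its RefSeq gene record, which begins further upstream, while that of Mt2 is the start of its record. The bases around these annotated starts are shown because the signals of both genes were high on the same array. Whether transcription in muscle begins at these starts was not tested. Each line runs 5′ to 3′ on the + strand from 250 bases before the start to 30 bases after it, at chr8:94172368-94172647 for Mt2 and chr8:94178839-94179118 for Mt1. Capitals mark matches, on either strand, to the core of the metal response element that MTF-1 binds, searched as TGCACNC and TGCGCNC.

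Mt2: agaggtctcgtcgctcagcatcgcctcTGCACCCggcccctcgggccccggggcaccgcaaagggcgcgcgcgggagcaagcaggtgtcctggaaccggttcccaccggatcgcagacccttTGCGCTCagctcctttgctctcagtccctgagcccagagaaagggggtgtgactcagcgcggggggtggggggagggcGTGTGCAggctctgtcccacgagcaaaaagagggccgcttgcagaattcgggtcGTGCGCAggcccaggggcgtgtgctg

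Mt1: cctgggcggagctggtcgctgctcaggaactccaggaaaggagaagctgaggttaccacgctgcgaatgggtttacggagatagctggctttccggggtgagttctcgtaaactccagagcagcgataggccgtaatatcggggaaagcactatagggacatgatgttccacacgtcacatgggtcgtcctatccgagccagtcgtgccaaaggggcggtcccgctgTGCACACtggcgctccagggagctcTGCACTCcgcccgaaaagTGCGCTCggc

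The Mt2 window held 4 such matches and the Mt1 window 3, a count that holds for the start used here. Among the windows of 300 bases listed for 27025 genes, 25.6% held at least 1 match, 540 windows at least 3 and 136, or 0.503%, at least 4. With the start used counted as position 0, the first bases of the Mt2 matches lay at -223, -128, -50 and 4, and those of the Mt1 matches at -23, 2 and 20. The palindromic glucocorticoid response element, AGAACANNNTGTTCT, was found in neither window and in 1 of the 27025. Its single arm, AGAACA, was found on neither strand in either window and in 5139 of all windows. The antioxidant response element core, TGACNNNGC, was matched in Mt2 at -79 and not in Mt1, against 12.5% of all windows. The GC box GGGCGG was matched 3 times in Mt1, at -247, -37 and 8, and not in Mt2. The match at 8 overlapped the metal response element core at 2, and 35.9% of all windows held a GC box. The E-box CACGTG and the TATA box TATAAA had no match in either window, against 7.24% and 14.2% of all windows. Bases beyond the windows were not searched, so elements further upstream or downstream of the starts used would be missed. These matches describe letters in the windows only.

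The arrays themselves were alike in depth of signal. Median signals lay between 189 and 199.6, and between 63.0% and 64.4% of the probe sets reached a signal of 100, which was used as a floor below which values were not ordered. Of 15 fast fibre markers on the array, such as the fast myosin and troponin genes, 14 reached the floor on every array, so the defining genes of the labelled tissue were present. Each array was run in a fluidics module of its own, and the effects of module, pool and group cannot be told apart. Within the data the spread available was the SD between the log2 ratios of a pair of probe sets for the same gene, divided by the square root of 2. Between the adrenalectomized and intact arrays this spread was 0.24, between the 3 h and adrenalectomized arrays 0.28, and between the 24 h and adrenalectomized arrays 0.32. This spread holds no variation between mice or pools, and below it is given as the unit of size only. A lower signal in a whole muscle can mean less RNA per cell or fewer cells of a type, which cannot be told apart here.

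The signal of Mt2 was 1101 in intact muscle, 1047 after adrenalectomy, 6819 at 3 h and 1072 at 24 h. The 3 h array thus stood alone, and the other 3 arrays differed by less than the spread between probe sets. The signal of Mt1 was 568 in intact muscle, 441 after adrenalectomy, 1529 at 3 h and 313 at 24 h. The 3 h array again stood above the rest, and the 24 h array was the lowest. Since each gene had 1 probe set and probe sets differ in brightness, the levels of Mt1 and Mt2 were not compared with each other.

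**Figure D1:**
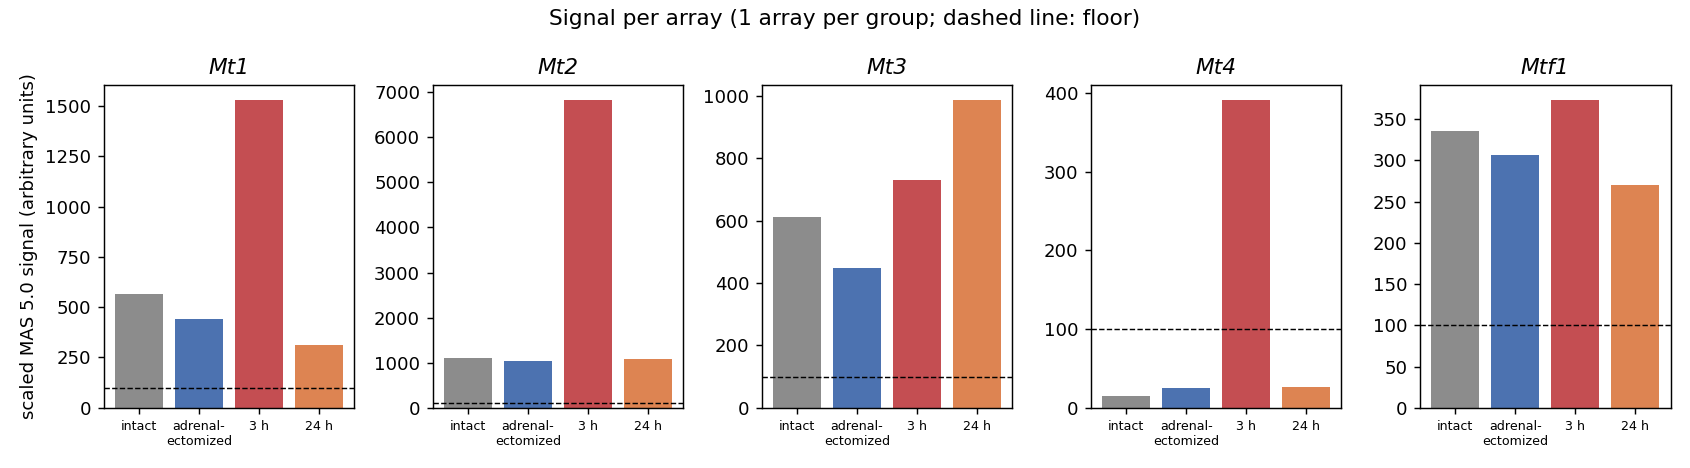
Scaled MAS 5.0 signal (vertical axes from 0, arbitrary units, a separate scale per gene) of Mt1, Mt2, Mt3, Mt4 and the regulator gene Mtf1 on the intact, adrenalectomized, 3 h and 24 h arrays, with 1 bar per array and the floor of 100 as a dashed line. Mt1 and Mt2 are highest at 3 h (1529 and 6819), Mt4 reaches the floor at 3 h alone (391), and Mt3 is highest at 24 h (985).

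Intact and adrenalectomized muscle were compared to see how each gene stood without adrenal hormones. Neither gene passed 2-fold, a size that 0.720% of the 6112 genes compared reached in either direction. Mt1 was 1.29-fold lower, a log2 ratio of -0.36 or 1.52 times the spread between probe sets. Mt2 was 1.05-fold lower, a log2 ratio of -0.07 or 0.304 times that spread. Counted from the lowest ratio, Mt1 was number 419 and Mt2 number 2011 of the 6112 genes. Of 29 glucocorticoid-induced genes compared here, 2 were at least 1.5-fold lower and 1 at least 1.5-fold higher, against 2.24% and 2.67% of all genes, with a median log2 ratio of -0.05. The lower ones were Tiparp, at 1.79-fold, and Fkbp5, whose protein restrains the glucocorticoid receptor, at 1.70-fold, and the higher one was Cebpd, at 1.61-fold. The log2 ratio of Mt2 was 0.29 above that of Mt1, which is less than the 0.34 spread of a difference between the ratios of a pair of probe sets.

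Muscle taken 3 h after the injection was then set against muscle of uninjected adrenalectomized mice. Both genes passed 2-fold upward, as did 1.86% of the 6168 genes compared. Mt2 was 6.52-fold higher, a log2 ratio of 2.70 against a median of -0.02 over all genes, or 9.66 times the spread between probe sets. Mt1 was 3.47-fold higher, a log2 ratio of 1.79 or 6.40 times the spread. Counted from the highest ratio, Mt2 was number 15 and Mt1 number 33 of the 6168. The log2 ratio of Mt2 exceeded that of Mt1 by 0.91, which is 2.30 times the spread of such a difference. Whether the probe sets respond to RNA amount with the same slope was not tested.

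Against intact muscle, which has its own circulating corticosterone, the 3 h signals were also higher. Mt2 was 6.20-fold higher, a log2 ratio of 2.63, and Mt1 2.69-fold higher, a log2 ratio of 1.43. A 2-fold higher signal was found for 1.83% of the 6162 genes in that comparison. The ratio of Mt2 exceeded that of Mt1 by 1.20 on the log2 scale, or 3.11 times the spread of such a difference. These comparisons use the same 3 h array, so an error in its signal would appear in both.

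**Figure D2:**
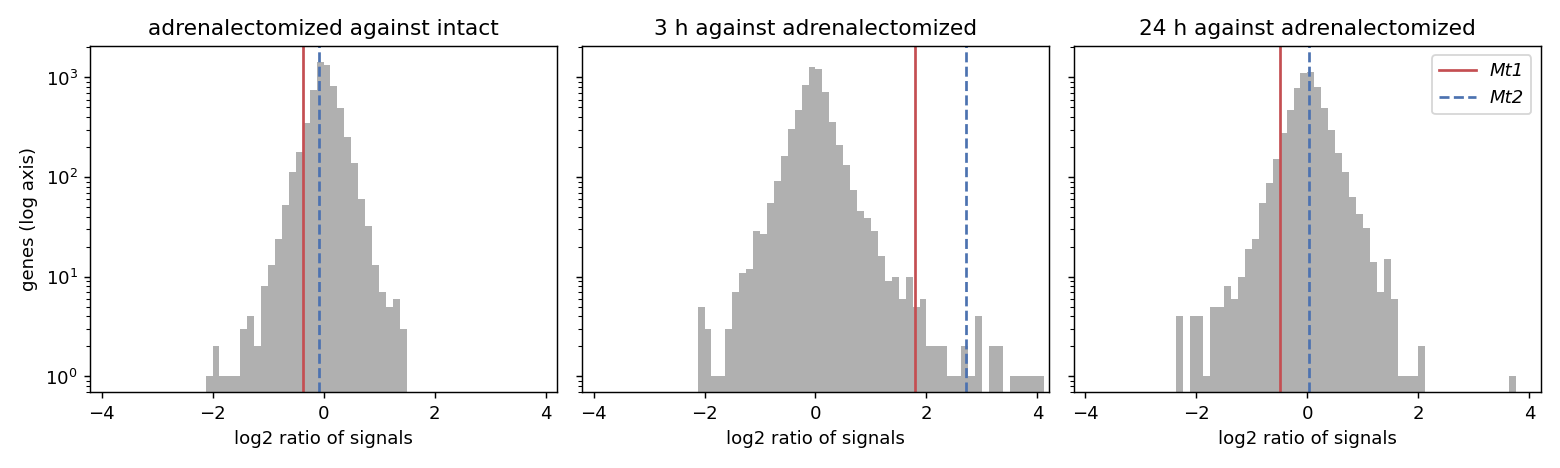
Distribution of log2 signal ratios over all genes compared (grey bars, 0.125 wide on the horizontal axis; number of genes on a log vertical axis) for the 3 main comparisons, with Mt1 as a solid and Mt2 as a dashed line. Both lines lie in the upper tail at 3 h (1.79 and 2.70). In the other comparisons Mt2 lies near 0 (-0.07 and 0.04) and Mt1 below it (-0.36 and -0.49).

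At 24 h the signals were no longer above those of adrenalectomized mice. Neither gene passed 2-fold against the adrenalectomized array, a size reached by 2.33% of 6228 genes. Mt2 was 1.02-fold higher, a log2 ratio of 0.04 that lay between -0.05 and 0.04 under other scalings and so has no direction. Mt1 was 1.41-fold lower, a log2 ratio of -0.49 or 1.56 times the spread between probe sets. Of the difference in signal between the 3 h and adrenalectomized arrays, 5773 for Mt2 and 1088 for Mt1, 0.449% was left for Mt2 at 24 h, a share that was 0.231% under median scaling and -0.696% under scaling to ribosomal protein genes and so has no direction. For Mt1 the remainder was -11.8%, and -15.3% under scaling to ribosomal protein genes, since its 24 h signal was 128 below the adrenalectomized one. Among the 115 genes at least 2-fold higher at 3 h, 72, or 62.6%, were within 1.5-fold of the adrenalectomized array at 24 h, and both metallothionein genes were among them.

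Between the injected groups, Mt2 was 6.36-fold and Mt1 4.88-fold lower at 24 h than at 3 h, with log2 ratios of -2.67 and -2.29. A signal at least 2-fold lower was found for 1.96% of the 6229 genes. From the lowest ratio upward, Mt2 was number 7 and Mt1 number 12 of them. Here the ratios of both genes differed by 0.38 on the log2 scale, or 0.877 times the spread of such a difference. Against intact muscle Mt2 at 24 h was 1.03-fold lower, with a log2 ratio of -0.04. Mt1 at 24 h was 1.81-fold lower than in intact muscle, with a log2 ratio of -0.86 or 2.66 times the spread, and 4.04% of 6219 genes were at least 1.5-fold lower there. In order of level, Mt2 read highest at 3 h, then in intact, 24 h and adrenalectomized muscle, with the last 3 inside the spread. Mt1 read highest at 3 h, then in intact, adrenalectomized and 24 h muscle, with each step among the last 3 at 1.52 to 1.56 times the spread.

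Of the other family members on the array, Mt4 was also highest at 3 h, while Mt3 was highest at 24 h. Mt3, known from brain, read 612 on the intact array, 448 after adrenalectomy, 731 at 3 h and 985 at 24 h. It was 1.63-fold higher at 3 h and 2.20-fold higher at 24 h than after adrenalectomy. Mt4, known from stratified squamous epithelium, read 391 at 3 h and was below the floor elsewhere, with 14.5 in intact muscle, 25.7 after adrenalectomy and 26.0 at 24 h. Its 3 h signal was at least 3.91-fold above the adrenalectomized array. In these comparisons 5.07% of genes were at least 1.5-fold higher at 3 h, and at 24 h 1.27% were at least 2-fold higher.

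Mtf1, which encodes the zinc-sensing activator of metallothionein genes, read 336, 307, 373 and 270.2 on the intact, adrenalectomized, 3 h and 24 h arrays. It was 1.21-fold higher at 3 h, with a log2 ratio of 0.28 that equals the spread between probe sets. It stayed within 1.5-fold in all 3 main comparisons. Of 13 zinc handling genes on the array, which besides Mtf1 encode transporters that move zinc out of or into the cytosol, 12 could be compared at 3 h and none passed 1.5-fold, a size that 9.82% of all genes reached there in either direction. Their median log2 ratio was 0.05 at 3 h and -0.11 at 24 h, beside -0.02 and 0.01 over all genes. The 3 h median turned to -0.08 when arrays were scaled to ribosomal protein genes. The zinc exporter gene Slc30a1, itself a known target of MTF-1, was below the floor on all 4 arrays. The transporter gene Slc39a9 was 1.52-fold higher after adrenalectomy than in intact muscle, the only member past 1.5-fold in a main comparison, where 2.67% of genes were that much higher.

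Genes of copper and iron handling were near the all-gene median too. Of 11 copper handling genes none passed 1.5-fold at 3 h, and of 8 iron handling genes 1 did, both near the 9.82% of all genes that passed in either direction. At 3 h the median log2 ratio of the copper list was -0.01, and 0.01 under median scaling. Lox, a copper-dependent enzyme that crosslinks collagen, read 247, 378, 319 and 207 in the order of the groups and was 1.83-fold lower at 24 h than after adrenalectomy. It was 1.53-fold higher after adrenalectomy than in intact muscle. The copper pump gene Atp7b was at least 1.62-fold higher after adrenalectomy, with an intact signal below the floor. The iron handling gene past 1.5-fold at 3 h was Tfr2, a transferrin receptor gene. It read 139, 219, 108 and 135 and was 2.02-fold lower at 3 h and 1.62-fold lower at 24 h than after adrenalectomy, and 1.57-fold higher after adrenalectomy than in intact muscle.

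Antioxidant defence genes, which share oxidative stress as an inducer with metallothioneins, included no member past 1.5-fold at 3 h among 29 compared, beside the 9.82% of all genes. Their median log2 ratio was 0.01 at 3 h, with members from -0.49 to 0.26, and turned negative under scaling to ribosomal protein genes. At 24 h, where 10.0% of all genes passed 1.5-fold, 2 members did. Gstm2, a glutathione transferase gene, was 2.08-fold lower at 24 h, with 522 against 1087 after adrenalectomy. Gpx1, which encodes a glutathione peroxidase, was 1.64-fold higher at 24 h, with 1015 against 618. Prdx4, a peroxiredoxin gene, was 1.54-fold higher after adrenalectomy than in intact muscle.

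Genes of cytokine signalling to STAT3, another known route to metallothionein induction, went both ways at 3 h. Of 16 compared, 3 were past 1.5-fold upward and 3 downward, where 5.07% and 4.75% of all genes were, with a median log2 ratio of 0.07 that became -0.06 under scaling to ribosomal protein genes. Cebpd and Cebpb, transcription factor genes that also stand in the list of glucocorticoid-induced genes, were 4.19-fold and 2.05-fold higher. The interleukin 6 receptor gene Il6ra was 1.57-fold higher, with 454 against 289.6. Pim1, a STAT-induced kinase gene, was 1.55-fold lower. Socs1, a feedback inhibitor gene, and Saa3, an acute phase gene, were 1.51-fold and 1.52-fold lower. At 24 h Cebpd was 1.78-fold and Cish, another feedback inhibitor gene, 1.60-fold lower than after adrenalectomy. Saa3 and Cebpd were also 1.67-fold and 1.61-fold higher after adrenalectomy than in intact muscle.

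Glucocorticoid-induced genes, a list that did not include the metallothioneins, also stood high at 3 h. Of 31 compared, 14 passed 2-fold upward and none downward, against 1.86% and 1.17% of all genes, with a median log2 ratio of 0.74. At 1.5-fold 18 were higher and 1 lower, against 5.07% and 4.75% of all genes. The lower one was Tsc22d3, at 1.65-fold. Of the 31, 29 reached the floor on the adrenalectomized array. The others, Map3k6 among them, could be compared only through their 3 h signal, so part of the count follows from that filter. The list was chosen with earlier results of these data known, so these counts are not independent of the data. Tiparp (15.5-fold), Ddit4 (12.6-fold) and Map3k6 (at least 7.58-fold) had larger ratios than Mt2. Fkbp5 (4.74-fold), Cebpd (4.19-fold) and Nfkbia (3.86-fold) lay between Mt2 and Mt1. At 24 h against adrenalectomized muscle the median of the list was 0.02, or -0.07 under scaling to ribosomal protein genes, with 1 of 30 past 2-fold downward and none upward, against 1.06% and 1.27% of all genes. Fkbp5 was still 1.78-fold higher at 24 h, unlike Mt1 and Mt2, though the difference between these genes was not tested.

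**Figure D3:**
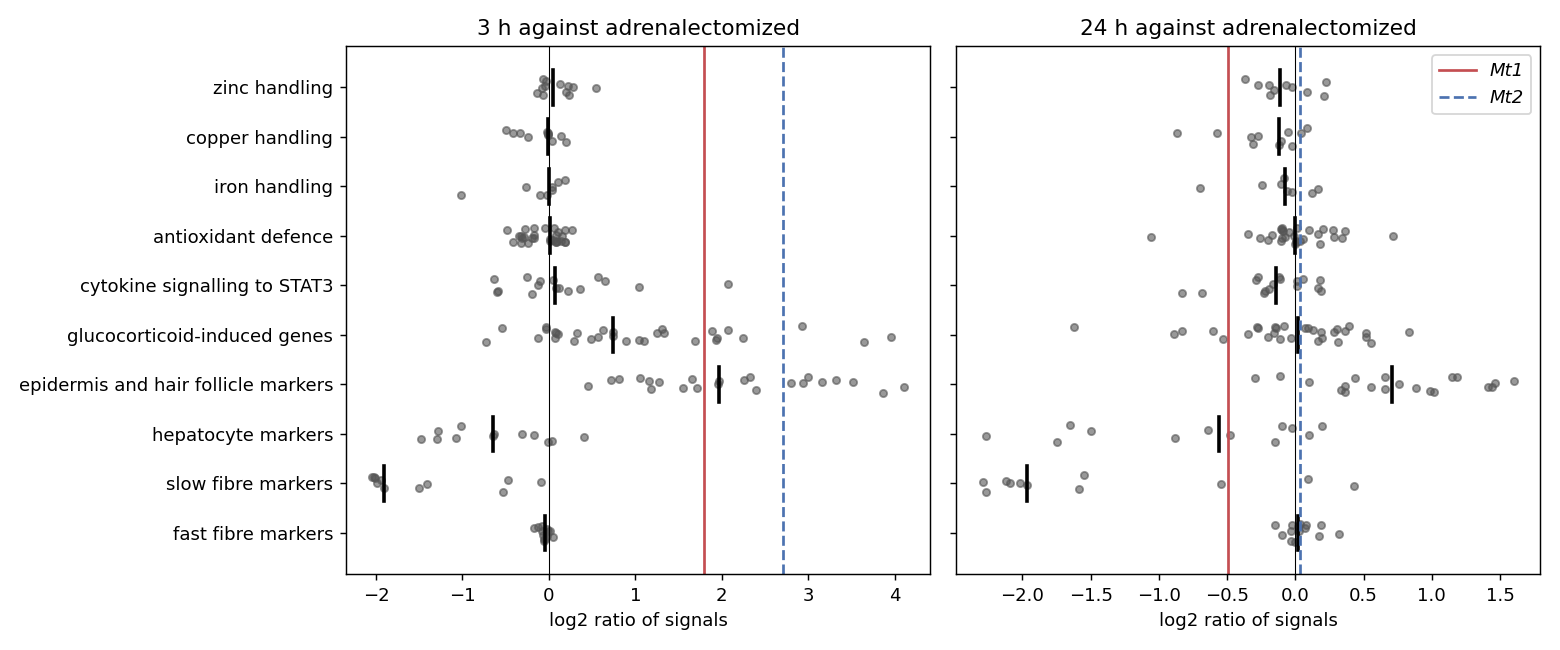
Log2 signal ratio (horizontal axes) of each gene of 10 lists (grey points, with the list median as a black bar) at 3 h and at 24 h against the adrenalectomized array, with Mt1 as a solid and Mt2 as a dashed vertical line. At 3 h the metal handling and antioxidant lists sit around 0, while the glucocorticoid-induced and epidermal lists reach and pass the metallothionein lines.

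Markers of other cell types also differed on the 3 h array. Of 31 epidermis and hair follicle markers on the array, Mt4 among them, 23 could be compared at 3 h. Of these, 20 were at least 2-fold higher, against 1.86% of all genes, with a median log2 ratio of 1.97. Only 13 of the 23 reached the floor on the adrenalectomized array. The others could be compared only through their 3 h signal, so part of the count follows from that filter. The list was chosen with earlier results of these data known. Their summed signal was 3517 on the intact array, 3457 after adrenalectomy, 18234 at 3 h and 6288 at 24 h. Largest at 3 h were the ratios of Dsp, a desmosome gene (at least 17.2-fold), Krt10, a keratin gene (14.6-fold), and the hair gene Krtap8-1 (at least 11.5-fold). The number of these markers at or above the floor was 13, 13, 23 and 20 in the order of the groups, and 8, including the basal keratin genes Krt5 and Krt14, were below it on all 4 arrays. At 24 h 19.2% of the difference in the summed epidermal signal between the 3 h and adrenalectomized arrays was left. Of 20 markers compared at 24 h under the same filter, 7 were at least 2-fold higher than after adrenalectomy, against 1.27% of all genes. Epidermis is known to express Mt1 and Mt2 as well, and the part of these cells in the 3 h metallothionein signals was not tested.

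Hepatocyte markers, from a tissue rich in metallothioneins, went the other way as a sum. Their summed signal was 7217, 5423, 3614 and 3390.5 in the order of the groups, with 14, 12, 10 and 9 of 19 at or above the floor. Of 12 compared at 3 h, 5 were at least 2-fold lower than after adrenalectomy and none higher, against 1.17% and 1.86% of all genes. Their log2 ratios ran from -1.48 to 0.40, so the list did not move as a whole. The brightest marker, Cyp2e1, read 1601, 1519, 1562 and 1742 in the order of the groups. Largest at 3 h were the ratios of Serpina1e, Serpina1b and Alb, at 2.80-fold, 2.44-fold and 2.43-fold lower. Both serpin genes rest on probe sets whose suffix marks probes shared with other transcripts. Slow fibre markers summed to 76922, 84014, 31222 and 30186, all 11 at or above the floor on each array, so they were low at 24 h as well as at 3 h. Tnnt1, Atp2a2 and Myh7, slow forms of troponin, calcium pump and myosin, were 4.11-fold, 4.06-fold and 4.02-fold lower at 3 h. These 3 genes also rest on probe sets whose suffix marks shared probes. Fast fibre markers summed to between 328501 and 340516, and their largest difference at 3 h was that of Mylpf, a myosin light chain gene, at 1.13-fold lower, followed by Tnni2 and Tnnc2. The suffix of the Tnnc2 probe set marks shared probes too. The highest signal of each array, between 34253.5 and 36007.2, was that of a fast fibre marker. Whether signals so near the top of the range still follow RNA amount was not tested.

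Adipocyte, macrophage, endothelial and erythroid markers had medians nearer to 0. Median log2 ratios at 3 h were -0.17 over 7 adipocyte markers, -0.35 over 15 macrophage markers, -0.16 over 11 endothelial markers and 0.10 over 5 erythroid markers. The largest of the adipocyte ratios were those of Retn, Lpl and Cd36, at 1.19-fold, 1.15-fold and 1.14-fold lower. Among macrophage markers the lectin gene Lgals3 was 3.17-fold and the Fc receptor gene Fcgr3 at least 1.59-fold higher, and Tyrobp was 1.60-fold lower. Of the 11 endothelial markers, 3 were at least 1.5-fold lower and 2 at least 1.5-fold higher, against 4.75% and 5.07% of all genes. The largest ratios were those of Kdr, Icam2 and Tek, at 1.99-fold, 1.83-fold and 1.64-fold lower. The erythroid genes Slc4a1, Alas2 and Car2 were 1.21-fold higher, 1.14-fold lower and 1.13-fold lower. The summed signals of these lists ranged over the 4 arrays from 8492 to 11098, 7133 to 8463, 6712 to 7921 and 6932 to 9587.

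The genes whose profile over the 4 arrays was most like that of each metallothionein were taken by Euclidean distance between log2 signals, each centred on its own mean, among 5452 genes at or above the floor on every array. Nearest to Mt2 were Pag1, an adaptor of Src kinases (distance 0.33), the amino acid transporter gene Slc7a8 (0.61), Rhob, a small GTPase gene (0.62), Gm10229 (0.67) and the chemokine scavenger receptor gene Ackr3 (0.67). Pag1 read 137, 101, 628 and 113 in the order of the groups and was 6.24-fold higher at 3 h than after adrenalectomy. Nearest to Mt1 were Frat2 (0.35), Rhob (0.43), the stress-induced gene Gadd45g (0.49), the matricellular protein gene Ccn2 (0.51) and Ackr3 (0.57). Frat2 read 410.2, 415, 1347 and 312 in that order, from a probe set whose suffix marks incomplete probes.

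Rhob and Ackr3 stood in both sets of 5. Rhob read 1648, 1730.1, 6626 and 1198, a shape that shared with Mt1 a 24 h signal below the adrenalectomized one. Mt1 and Mt2 were not each other's nearest gene. Their distance was 0.93, which placed Mt2 at rank 37 from Mt1 and Mt1 at rank 16 from Mt2. The distances rest on 4 arrays, and all profiles share the same arrays and pools.

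**Figure D4:**
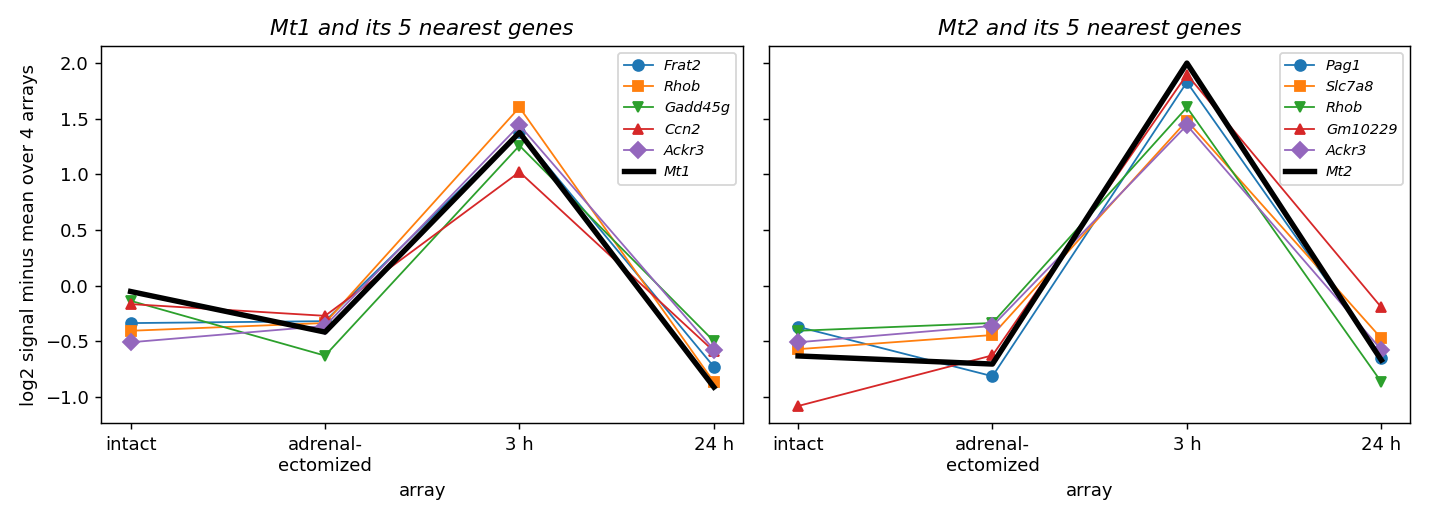
Log2 signal minus its mean over the 4 arrays (vertical axis) on the intact, adrenalectomized, 3 h and 24 h arrays for Mt1 (left) and Mt2 (right) as thick black lines, with the 5 nearest genes of each as thin lines with markers. Every line peaks at 3 h, and Mt1 is lowest at 24 h while Mt2 is level over the other 3 arrays.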

How the data were processed

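Total RNA was isolated with Trizol and hybridized by standard Affymetrix procedures, per the labels. The deposited values are probe set intensity signals on a linear scale that the authors computed with MAS 5.0, per the labels. Each deposited column had nearly the same trimmed mean, so the authors had scaled the arrays. The 66 control probe sets were left out, which removed all 20 missing values of the 3 h array. Each array was rescaled to a trimmed mean of 500 (2% left out at each end) over the other 12422, signals under 100 were set to 100, and log2 ratios were taken. Where the dimmer signal was below 100 a fold is given as a lower bound. Gene symbols came from the platform annotation (10833 probe sets with 1 symbol, 396 with several, 1193 with none), and 10817 of the 10833 matched RefSeq by gene ID with 0 symbols changed. A gene with several probe sets was represented by the brightest by mean signal.

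With 1 array per group no test was run. Counts use 2-fold or 1.5-fold. The members, the 16 gene lists and the alternatives were chosen with earlier results of these data known. Named genes were the members, Mtf1, Mt3 and Mt4, metal, antioxidant and cytokine list members past 1.5-fold in a main comparison, the 6 largest of the glucocorticoid-induced list and the 3 largest of each cell type list at 3 h, and the 5 nearest genes to each member. Slc30a1, Krt5, Krt14, Tsc22d3 and Cyp2e1 were added after their values were seen, as were Fkbp5, Tiparp and Cebpd outside the 3 h comparison. Promoter windows came from RefSeq (GRCm38.p6). No protein sequence was used here. The calculations were tested on simulated data (Python 3.11.15, pandas 2.3.3, numpy 2.4.6).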

Additional observations from a re-analysis of the deposited data

How the results depend on the processing

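For Mt1 and Mt2 each of the 6 log2 ratios moved by less than the spread between probe sets under every alternative run: floors of 50 and 200, no floor, scaling to the median or to ribosomal protein genes, the values as deposited and the mean of all probe sets. At 3 h against adrenalectomized muscle the log2 ratio ranged from 1.66 to 1.82 for Mt1 and from 2.58 to 2.73 for Mt2, and at 24 h against 3 h from -2.33 to -2.25 and from -2.71 to -2.63. The share of the 3 h difference left at 24 h ranged over the scalings from -15.3% to -11.8% for Mt1 and from -0.696% to 0.449% for Mt2, changes smaller than 1 SD of the log2 ratio at 24 h makes in that share. Having 1 probe set each, both are untouched by the choice among probe sets, and having signals above 200 on every array, by the floor. Counts of genes at least 2-fold different depended on the floor. In the order adrenalectomized against intact, 3 h and 24 h against adrenalectomized, 24 h against 3 h, and 3 h and 24 h against intact, they were 193, 371, 354, 411, 370 and 348 with a floor of 50 or no floor, which give the same count by construction. With a floor of 200 they were 11, 102, 43, 89, 101 and 51. Scaling to ribosomal protein genes moved the median of all genes by more than 0.1 at 3 h, to -0.14 against adrenalectomized and -0.12 against intact muscle, and the share of higher genes among those past 2-fold at 3 h against adrenalectomized muscle from 61.5% to 47.3%. That share also went from 54.5% to 43.1% at 24 h against adrenalectomized muscle, and against intact muscle from 63.8% to 52.6% at 3 h and from 52.3% to 41.8% at 24 h, the last also to 39.5% under median scaling. Other probe set choices kept each count within 1.5 times. By Pearson correlation over the 4 arrays, 0 of the 5 nearest genes of either member were the same as by distance. No paired analysis was possible because each group has 1 array. The number of arrays, 1 per group, limits the precision of every value.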
